A study of Mus musculus with 30 samples.

Results

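The cytochrome P450 genes of families 1 to 3 were described in liver, kidney and brain of 10 mice. The members are the genes whose symbol starts with Cyp1, Cyp2 or Cyp3 followed directly by a letter and a digit. Each has a probe set that carries a single gene symbol in the platform annotation. There were 43 of them among 18193 genes with such a probe set, in 14 subfamilies and on 52 probe sets. Where a gene had several, the strongest over the arrays was used. The mice were males carrying the viable yellow allele of agouti, Avy, opposite the allele a. Tissue was taken at day 22, the age of weaning, with 1 array for each tissue of a mouse. The mice came from 1 sibling-mated colony kept heterozygous for Avy, a mutation of the C3H/HeJ strain, so all of them share this genotype. By coat they were yellow, slightly mottled, mottled, heavily mottled or pseudoagouti, with 2 mice in each class, numbered 2 and 1.

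P450 enzymes are haem proteins of the endoplasmic reticulum that insert an oxygen atom into their substrates, with electrons passed on by the reductase Por. Families 1 to 3 oxidise drugs, plant toxins and procarcinogens as well as steroids, bile acids and fatty acids, and the hepatocyte is their main site. Families 1, 2 and 3 hold the classic targets of the receptors Ahr (Cyp1a), CAR, encoded by Nr1i3 (Cyp2b), and PXR, encoded by Nr1i2 (Cyp3a). In adult rodent liver the pituitary pattern of growth hormone sets apart male-predominant and female-predominant forms.

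Of the 43 genes, 35 reached the level used for testing, which is a signal of 242 in the tissue where the gene was highest. That level is the median of this quantity over all probe sets. The other 8 were Cyp1a1, Cyp2b19, Cyp2c65, Cyp2d12, Cyp2d34, Cyp2d40, Cyp2j13 and Cyp3a16, whose tissue means lay between 7.09 and 366. The 366 is that of Cyp2j13 in kidney, where only 2 of 10 arrays were at the level and the mean of log2 values was under it. In liver 32 members had a mean log2 signal at or above the level, in kidney 9 and in brain 3. Among the 35, the highest tissue was liver for 30 genes, kidney for 4 (Cyp1b1, Cyp2j5, Cyp2j11 and Cyp2s1) and brain for 1 (Cyp2j9). The order of liver and kidney was not called for Cyp2j5. Signals of different genes come from different probes, so levels are compared here within a gene only. P450 paralogues are close in sequence, and cross-hybridisation between them was not tested.

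The arrays bore out their tissue labels. The summed signal of 4 hepatocyte markers lay between 82732 and 130559 in liver, between 274 and 12502 in kidney and between 176 and 532 in brain. For 5 proximal tubule markers the ranges were 415 to 708 (liver), 42214 to 87762 (kidney) and 376 to 1015 (brain). For 4 neuron markers they were 728 to 1296 (liver), 118 to 329 (kidney) and 33563 to 56160 (brain). The Y-linked gene Eif2s3y was at 267 or more on all 30 arrays. Some arrays stood apart in ways that bear on the P450 values. The kidney array of yellow 2 held the most liver transcripts, with those of yellow 1, mottled 2 and slightly mottled 2 next, in an order that differs between genes. Heavily mottled 1 was the highest mouse for 8 of the 32 members at the level in liver and 3 of the 9 in kidney. Mottled 1 was the lowest for 4 of the 32 in liver and 1 of the 9 in kidney. Other livers were extreme as often. Heavily mottled 2 was highest for 10 members, slightly mottled 1 lowest for 8, and slightly mottled 2 highest for 6 and lowest for 6. Heavily mottled 1 and mottled 1 were picked for omission after the values were seen. Tissue counts without the yellow mice and mottled 2, and spreads without heavily mottled 1 and mottled 1, are given beside the results. In bulk tissue, fewer cells of a type and less RNA per cell cannot be told apart.

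**Figure D1:**
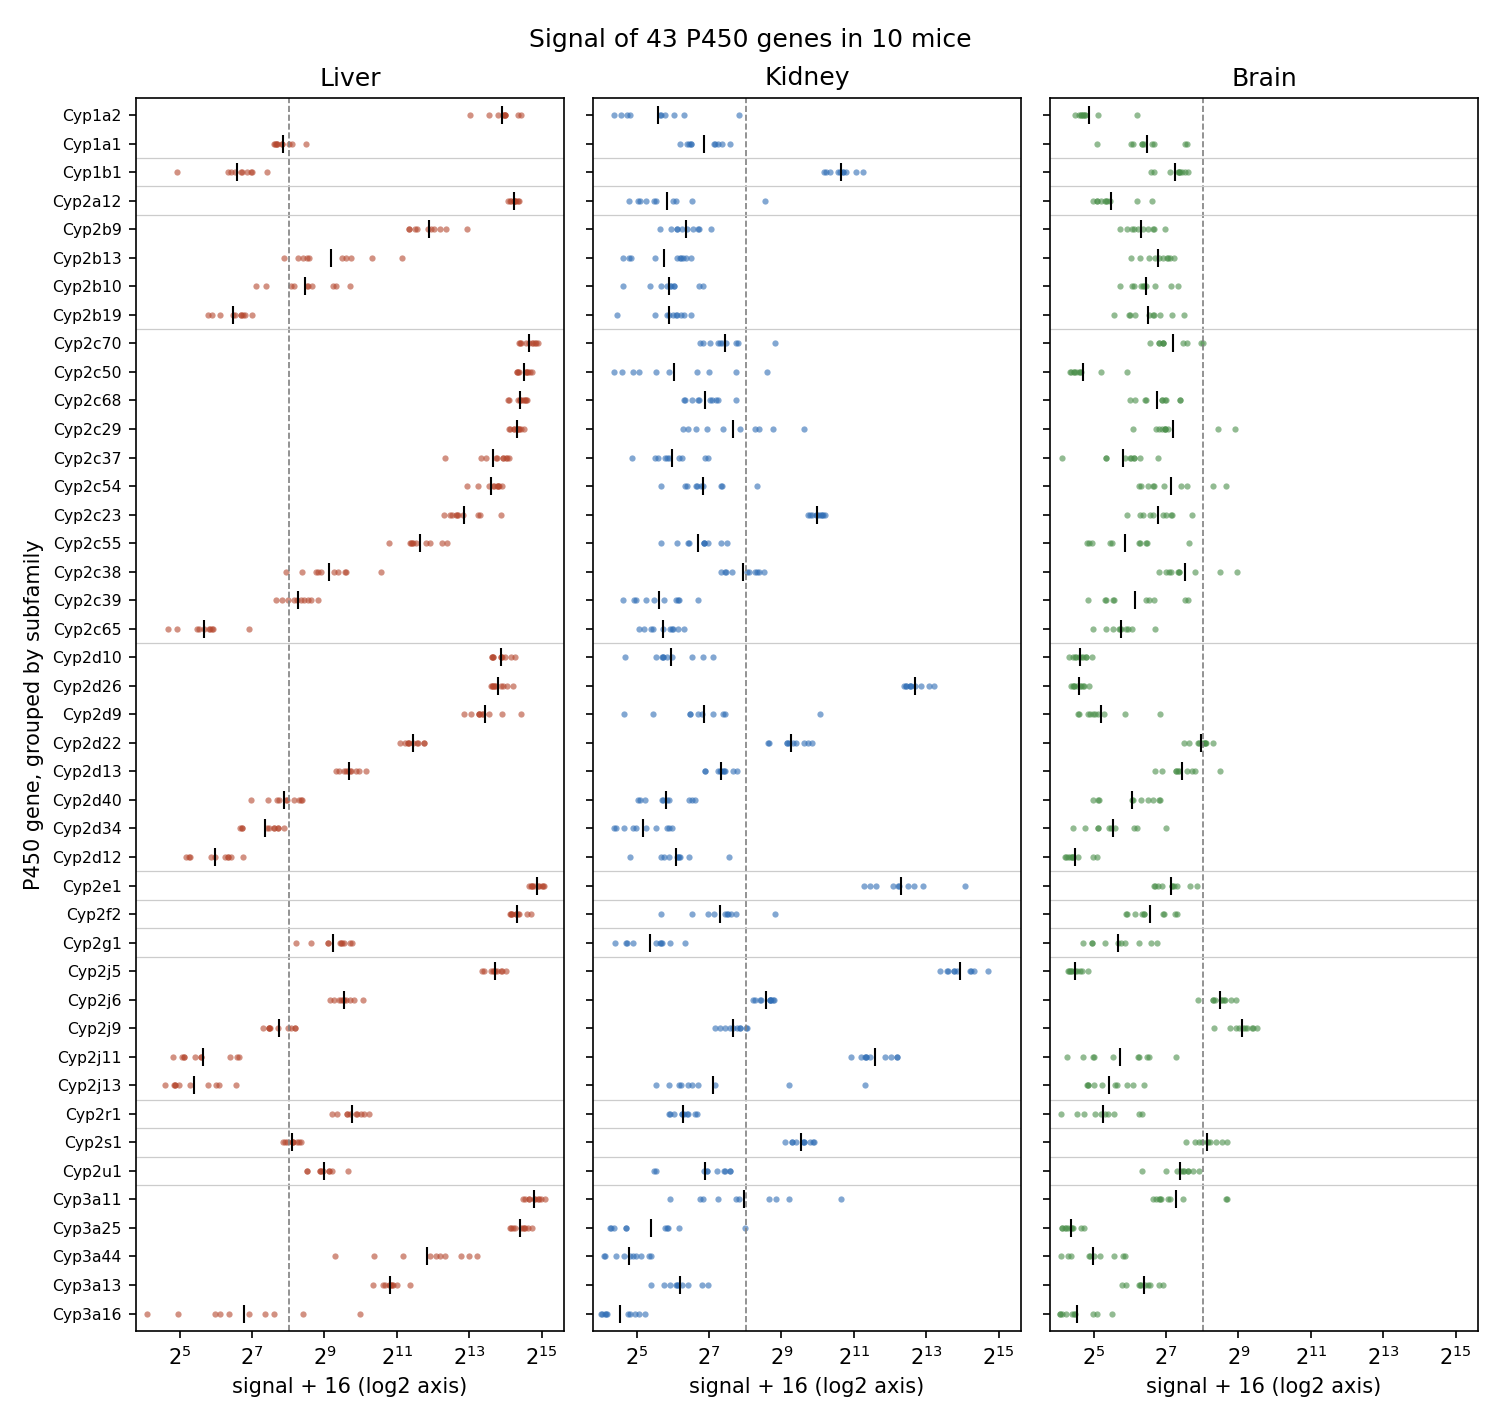
Signal + 16 of the 43 P450 genes (rows, grouped by subfamily) in liver, kidney and brain, on log2 axes. Each point is 1 mouse, the black tick is the mean of the log2 values over 10 mice, and the dashed line is the level used for testing, at a signal of 242. Liver holds 32 genes with means at or above the line, kidney 9 and brain 3.

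In the Cyp2j cluster the gene that was highest in brain lies between genes that were higher in liver than in brain. In the Cyp3a cluster, Cyp3a44 varied widely between mice in liver, while Cyp3a11 varied about as the median probe set of its level did. Promoters from both clusters are shown so that near and distant copies can be seen beside those patterns. Each line holds the 150 bases upstream of the transcription start from RefSeq (build GRCm38.p6), 5′ to 3′ in the direction of the gene. Capitals mark the motifs searched in the 250 upstream bases on both strands, TATAA, the core of a TATA box, and CAAAGTCCA, an HNF4-type element. Matches that overlap run together in capitals. In genome order Cyp2j6, Cyp2j9 and Cyp2j5 stand next to each other. Cyp2j6 and Cyp2j5 were called higher in liver than in brain, and Cyp2j9 was called lower:
Cyp2j6 (chr4:96553652-96553801, minus strand): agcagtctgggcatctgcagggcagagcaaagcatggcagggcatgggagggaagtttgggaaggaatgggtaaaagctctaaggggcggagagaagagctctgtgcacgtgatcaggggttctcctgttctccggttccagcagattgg
Cyp2j9 (chr4:96591486-96591635, minus strand): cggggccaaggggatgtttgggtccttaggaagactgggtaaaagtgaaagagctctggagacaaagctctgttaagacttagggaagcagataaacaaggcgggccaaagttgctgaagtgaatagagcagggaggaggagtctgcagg
Cyp2j5 (chr4:96664120-96664269, minus strand): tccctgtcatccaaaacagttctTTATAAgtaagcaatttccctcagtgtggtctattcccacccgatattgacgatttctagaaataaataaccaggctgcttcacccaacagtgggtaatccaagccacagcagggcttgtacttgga
Cyp3a44 and Cyp3a11 are neighbours, and Cyp3a16 lies further along the same cluster:
Cyp3a16 (chr5:145469724-145469873, minus strand): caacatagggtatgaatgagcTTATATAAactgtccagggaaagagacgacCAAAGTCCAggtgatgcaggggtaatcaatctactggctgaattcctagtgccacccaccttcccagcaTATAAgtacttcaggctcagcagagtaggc
Cyp3a44 (chr5:145805875-145806024, minus strand): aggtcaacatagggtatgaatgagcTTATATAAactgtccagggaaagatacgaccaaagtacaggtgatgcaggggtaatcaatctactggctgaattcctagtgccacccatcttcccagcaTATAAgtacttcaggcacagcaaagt
Cyp3a11 (chr5:145879855-145880004, minus strand): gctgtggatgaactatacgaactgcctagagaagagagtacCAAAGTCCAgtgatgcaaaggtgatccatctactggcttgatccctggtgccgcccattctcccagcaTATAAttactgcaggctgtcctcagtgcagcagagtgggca

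The 250-base promoters of Cyp3a16 and Cyp3a44 were 92.9% identical over their alignment. Against Cyp3a11, identity was 76.6% for Cyp3a16 and 72.5% for Cyp3a44. Cyp3a16 was under the level in liver, so its spread was not set against that of other probe sets. A link of promoter sequence with spread or tissue was not tested. In the Cyp2j trio identity was 50.2% between Cyp2j6 and Cyp2j9, 48.1% between Cyp2j9 and Cyp2j5 and 47.0% between Cyp2j6 and Cyp2j5. These alignments hold gaps, and no baseline from unrelated promoters was taken. The trio's values therefore do not show conservation or an order of closeness. RefSeq promoters were found for 35 of the 43 genes. TATAA was in 20 of these 35, or 57.1%, against 22.8% of all 32851 promoters in the table. CAAAGTCCA was in 5 of 35, Cyp2c65, Cyp2c68, Cyp2c70, Cyp3a11 and Cyp3a16, or 14.3%, against 0.38% of all promoters. A match is a run of letters in this window and not a measured binding site.

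Liver was compared with kidney and brain within each mouse. A call needed an adjusted p under 0.05 (limma, Benjamini-Hochberg over all 22519 probe sets tested) and a log2 difference of at least 1, over n = 10 mice. Against kidney, 29 of the 35 members were higher in liver, where 9.85% of all probe sets were, and 3 were lower, where 18.6% were. The median log2 difference over the 35 was 3.88, and -0.13 over all probe sets. Against brain, 31 were higher, where 20.4% of all were, and 1 was lower, where 30.2% were. That median was 6.08, and -0.15 over all probe sets. Each of the 29 and of the 31 was higher in 10 of 10 mice. A member passed the level mostly through liver, so these counts describe the 35 and not the 43.

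Family 1 split by gene. Cyp1a2, the constitutive hepatic caffeine demethylase, had a lowest, median and highest signal of 8347, 16031 and 22021 in liver, 4.8, 34.9 and 211 in kidney and 6.5, 10.2 and 57.3 in brain. Every liver value was above every kidney and brain value. The log2 difference was 8.32 ± 0.28 against kidney (SE, adjusted p = 9.07e-19) and 9.03 ± 0.28 against brain (adjusted p = 4.63e-20). Cyp1a1, the form that Ahr ligands induce, was below the level in all tissues, with ranges of 177 to 342 (liver), 56.9 to 174 (kidney) and 17.9 to 176 (brain). Cyp1b1, an extrahepatic enzyme that oxidises oestrogens, was called higher in kidney. Its lowest, median and highest signals were 14.7, 88.8 and 154 in liver, 1133, 1599.8 and 2399 in kidney and 80.2, 148 and 180.4 in brain. No kidney value overlapped the other tissues, and liver was lower than kidney by a log2 difference of -4.05 ± 0.20 (SE, adjusted p = 1.96e-15). Another probe set gave -3.14 ± 0.21 (adjusted p = 1.26e-12), and the remaining one was too dim to test.

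Of Cyp2c, the largest subfamily here with 11 genes, 10 were tested, and all 10 were higher in liver than in kidney and in brain. Cyp2c65 was under the level, with means of 39.3 in liver, 38.8 in kidney and 41.2 in brain. Cyp2c70, an enzyme of mouse muricholic acid synthesis, was at 21191, 26425 and 30326 in liver, 91.7, 144 and 434 in kidney and 79.1, 105 and 245 in brain. Its liver and kidney values were far apart in every mouse, and the log2 difference was 7.21 ± 0.20 (SE, adjusted p = 2.63e-20). Cyp2c29, Cyp2c37, Cyp2c50, Cyp2c54 and Cyp2c68 had liver means of 12722 to 23419.8 and log2 differences from kidney of 6.65 to 8.47. Smaller differences belonged to Cyp2c55 (4.93), Cyp2c39 (2.65) and Cyp2c38 (1.17).

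Cyp2c23, an arachidonic acid epoxygenase known from kidney, was at the level on 10 of 10 kidney arrays. Of the other Cyp2c genes, Cyp2c29 and Cyp2c38 reached it on 4 and 6 kidney arrays, with means of log2 values under it, and the rest on 1 at most. It had 5065, 6513 and 15106 in liver, 838, 1016 and 1167 in kidney and 44.7, 94.5 and 194 in brain. The 3 tissues did not overlap. Liver exceeded kidney by 2.86 ± 0.15 on the log2 scale (SE, adjusted p = 1.03e-14), and kidney exceeded brain by 3.22 ± 0.15 (adjusted p = 4.13e-16). Its probe set has a suffix for sequence shared with other transcripts.

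In Cyp2d, whose human counterpart CYP2D6 oxidises many basic drugs, 5 of 8 genes were tested and all 5 were higher in liver than in kidney and brain. Cyp2d26 was shared with kidney, at 12325, 13349.8 and 18728 in liver, 5366, 6049.6 and 9549 in kidney and 4.8, 8.0 and 13.6 in brain. The liver to kidney log2 difference was 1.12 ± 0.10 (SE, adjusted p = 2.50e-10), and liver to brain it was 9.21 ± 0.10 (adjusted p = 1.54e-28). Cyp2d22 had 2144, 2676 and 3442 in liver, 381, 603 and 912 in kidney and 166, 242 and 297 in brain, where 5 of 10 arrays were at the level. Its other probe set placed brain closer, with means of 1460.1 in liver, 496 in kidney and 477 in brain. Cyp2d10 and Cyp2d9 were liver genes, with means of 15043 and 11531 in liver and 53.3 and 184 in kidney. Cyp2d13 had means of 822 in liver, 148 in kidney and 168 in brain, and on its other probe set 956, 20.1 and 10.0.

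Cyp2e1, the ethanol-oxidising enzyme, was high in liver and at the level in kidney. Its signals were 25588, 29378 and 34406 in liver, 2465, 4752 and 17008 in kidney and 84.9, 128 and 217 in brain. The tissues did not overlap, and liver exceeded kidney by 2.56 ± 0.17 on the log2 scale (SE, adjusted p = 1.37e-12). Cyp2a12, a bile acid hydroxylase of mouse liver, had 17167, 19293 and 21188 in liver against 11.5, 29.6 and 360.5 in kidney. Cyp2f2, the naphthalene-activating enzyme of mouse airway and liver, had 17898, 20009 and 26753 in liver against 34.7, 160.3 and 439.7 in kidney. Both were liver genes with log2 differences from kidney of 8.40 ± 0.28 and 7.02 ± 0.21. Cyp2g1, described in olfactory mucosa, had a liver mean of 617 against 28.6 in kidney and 41.1 in brain.

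All 3 tested Cyp2b genes were liver genes. Cyp2b10, the standard target of CAR, was at 122, 356 and 812 in liver, 8.5, 45.0 and 97.5 in kidney and 36.7, 67.7 and 146 in brain, so that its lowest liver value lay under its highest brain value. The log2 difference was 2.57 ± 0.27 against kidney (SE, adjusted p = 4.09e-09) and 2.01 ± 0.27 against brain (adjusted p = 1.52e-07). This Cyp2b10 probe set has a suffix for sequence shared with other transcripts. Another with that suffix gave 2.16 ± 0.25 and 1.54 ± 0.25, both called. The remaining probe set, without the suffix, was too dim to test, with means of 239.9 in liver, 43.3 in kidney and 25.6 in brain. Cyp2b9 and Cyp2b13 had liver means of 4039 and 734 against kidney means of 68.9 and 43.8. Both differed several-fold between mice in liver.

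Of Cyp3a, the subfamily of the main human drug oxidase, 4 of 5 genes were tested, all higher in liver. Cyp3a11 had 22661, 28478 and 34493 in liver, 44.8, 206 and 1591 in kidney and 84.3, 109 and 399 in brain. Cyp3a25 had 17779, 22352 and 27150.1 in liver, 3.4, 24.8 and 237 in kidney and 1.5, 4.25 and 10.6 in brain. No kidney or brain array reached the level for Cyp3a25, and its liver signal was 84.0-fold above that level on the scale of signal + 16 (adjusted p = 2.08e-19 against kidney and 6.44e-21 against brain). Cyp3a13 ranged between 1284 and 2599.6 in liver, between 26.6 and 109.9 in kidney and between 38.7 and 106 in brain. Where kidney or brain was under the level, the size of a log2 difference depends on the offset added to the signal. Over the 25 members called higher in liver with kidney under the level, the median liver to kidney log2 difference was 6.65 with the offset of 16, 6.91 with an offset of 1 and 5.97 with an offset of 64.

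The Cyp2j genes, whose products make epoxides of arachidonic acid, differed in tissue pattern. Cyp2j5, known as an enzyme of liver and renal proximal tubule, had 10480.4, 13315 and 16608 in liver, 10573, 14368 and 26635 in kidney and 3.6, 5.8 and 13.0 in brain. Liver and kidney overlapped, and their log2 difference of -0.23 ± 0.10 (SE, adjusted p = 0.0377) was under the size a call needs. On its other probe set the means were 2811 in liver and 5034 in kidney, a log2 difference of -0.80 ± 0.16 that was also under that size. Cyp2j11 was seen in kidney alone at the level, with 12.1, 29.7 and 84.6 in liver, 1936, 2674 and 4645 in kidney and 3.4, 45.1 and 139 in brain. Liver was lower than kidney by a log2 difference of -5.94 ± 0.25 (SE, adjusted p = 6.29e-17), in 10 of 10 mice.

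Cyp2j9 was the brain gene of the set. It had 142, 180.2 and 278 in liver, 127, 193 and 249.9 in kidney and 306, 553 and 717 in brain. Brain did not overlap the other tissues, with log2 differences of -1.35 ± 0.16 for liver against brain (SE, adjusted p = 2.34e-08) and -1.42 ± 0.16 for kidney against brain (adjusted p = 1.11e-08). Cyp2j6 had means at the level in all 3 tissues, with 552, 718 and 1054 in liver, 279, 396 and 425 in kidney and 218, 353 and 475 in brain. Liver was above the other tissues in 10 of 10 mice, by 0.98 ± 0.12 on the log2 scale against kidney, just under the size for a call, and by 1.07 ± 0.12 against brain. On its other probe set these differences were 1.02 ± 0.15 and 1.82 ± 0.15, both called, and the brain mean of log2 values was under the level. Cyp2j13 was under the level in liver and brain in all mice and is described below with the kidney.

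The remaining singletons differed as well. Cyp2s1, an epithelial form, had 214, 260.3 and 309.8 in liver, 530.0, 763 and 948 in kidney and 173, 269 and 393 in brain. Kidney did not overlap the others, and liver was lower than kidney by -1.44 ± 0.12 on the log2 scale (SE, adjusted p = 1.36e-10), while liver and brain overlapped (-0.03 ± 0.12, adjusted p = 0.809). Cyp2r1, a vitamin D 25-hydroxylase, had means of 869.7 in liver, 62.6 in kidney and 26.4 in brain. Cyp2u1, a fatty acid hydroxylase, had means of 500.3, 117 and 158, so that liver led by 2.07 ± 0.22 against kidney (SE, adjusted p = 5.14e-09). Its other probe set was too dim to test, with means of 162 in liver, 84.2 in kidney and 127 in brain and log2 differences of 0.86 from kidney and 0.33 from brain.

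Between kidney and brain, 13 of the 35 members were called higher in kidney, where 20.7% of all probe sets were, and 2 lower, where 21.9% were. Of the 13, only 8 had a kidney mean at the level: Cyp1b1, Cyp2c23, Cyp2d22, Cyp2d26, Cyp2e1, Cyp2j5, Cyp2j11 and Cyp2s1. For Cyp2c50, Cyp2d9, Cyp2d10, Cyp2r1 and Cyp3a25 both tissues were under it, as they were for Cyp2b13, which was lower in kidney beside Cyp2j9. Among the 8, the log2 difference ran between 1.32 for Cyp2d22 and 9.44 for Cyp2j5. On its other probe set Cyp2d22 was not called (0.02 ± 0.13, adjusted p = 0.889).

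Other genes of the pathway were counted between liver and kidney from fixed lists. Of 20 tested receptors and liver factors, 14 were higher in liver and 0 lower, with 9.85% and 18.6% of all probe sets called in those directions. Nr1i3 led kidney by 5.07 ± 0.20 on the log2 scale (SE, adjusted p = 1.53e-17), Nr1i2 by 2.41 ± 0.16 (adjusted p = 1.32e-12) and Ahr by 2.17 ± 0.13 (adjusted p = 8.14e-14). Hnf4a, a nuclear receptor of hepatocytes and proximal tubule, had means of 9203 in liver, 8894 in kidney and 129 in brain and was not called between liver and kidney (log2 0.05 ± 0.22, adjusted p = 0.838). Of 17 electron donor and haem genes, 8 were higher and 0 lower in liver. Alas1, which makes the first haem precursor, was among them, with a log2 difference of 1.84 ± 0.33 (SE, adjusted p = 2.79e-05). Of 38 conjugating enzymes and epoxide hydrolases, 23 were higher and 5 lower in liver.

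The low P450 signals of kidney moved with liver transcripts on some arrays. Of the 25 members called higher in liver with a kidney mean under the level, 17 had their highest kidney value in yellow 2. The median signal over the 25 was 157.5 in that kidney, 99.3 in mottled 2 and 54.2 in yellow 1, with 46.4 to 75.3 in the other 7. Albumin (Alb) was at 10094 in the kidney of yellow 2, 4378 in yellow 1 and 3642 in mottled 2, against 151 to 2083 in the other 7. Fibrinogen beta (Fgb) was at 294, 88.9 and 62.2 in those 3 kidneys and 1.5 to 69.9 in the others. The same 3 kidneys were the highest for Cyp3a11, with 1591 in yellow 2, 446 in yellow 1 and 575 in mottled 2, against 44.8 to 386 in the others. Cyp2c29 was at 769, 316 and 417 in those kidneys and 62.1 to 291 in the others. For Cyp2c50 they were at 370, 86.1 and 199, and slightly mottled 2, at 112, exceeded yellow 1.

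The part of liver transcripts in these kidney values was not tested. Without both yellow mice, the median liver to kidney log2 difference of the 25 was 6.92, and 6.65 with them. Without these and mottled 2 it was 6.89. Under either omission, 30 members were called higher and 3 lower in liver. Against brain, 10 members were called higher in kidney under either omission, with Cyp2c50, Cyp2r1 and Cyp3a25 no longer called.

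**Figure D2:**
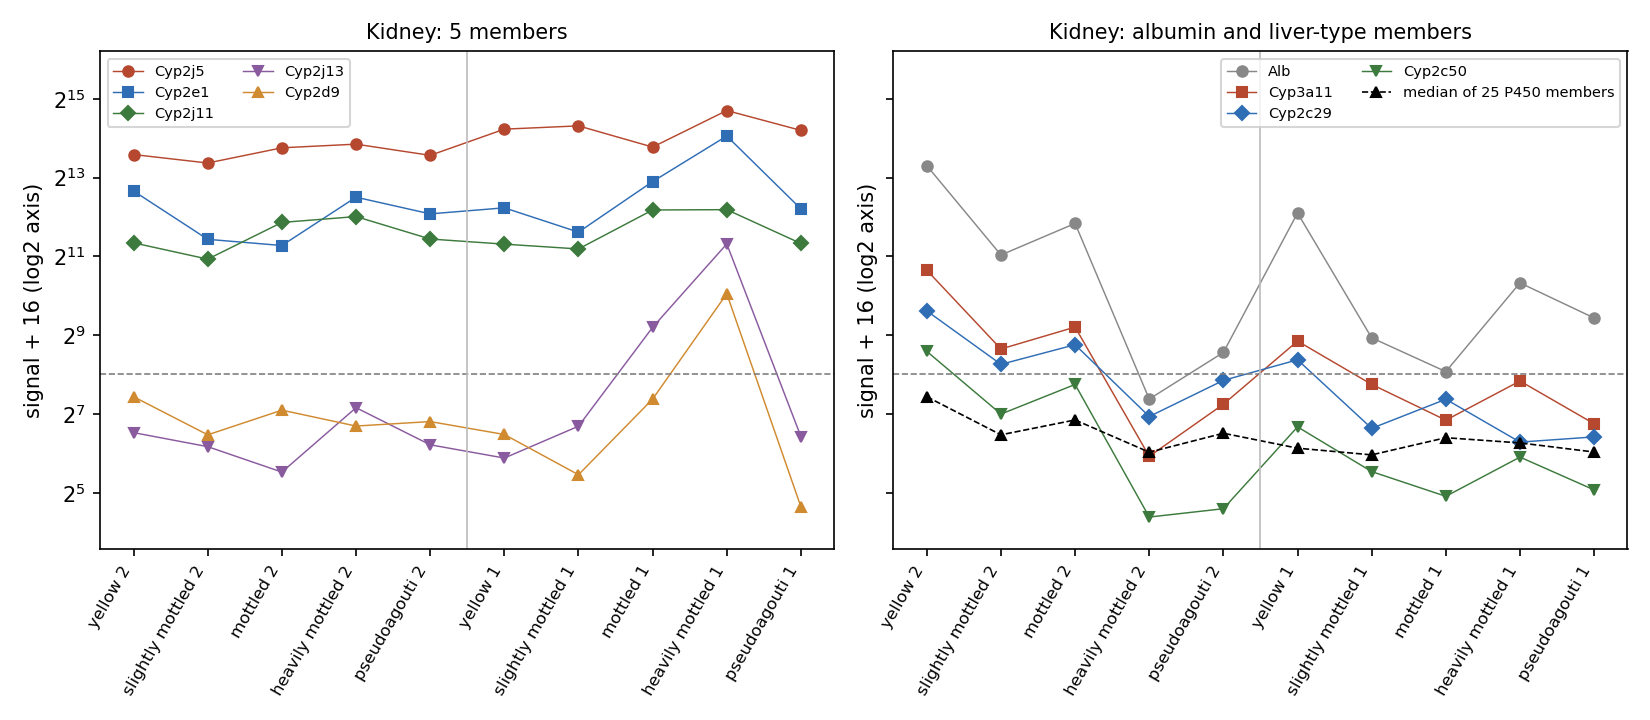
Kidney signal + 16 on a log2 axis in each of the 10 mice, number 2 mice left of the vertical line and number 1 mice right of it, with the dashed line at the level used for testing. The left panel shows 5 members, all highest in heavily mottled 1. The right panel shows albumin, 3 liver-type members and the median of 25 such members, all highest in yellow 2.

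Spread between mice was measured as the SD of log2(signal + 16) over the 10 mice, for members at or above the level in the tissue. In liver the median SD was 0.26 over 32 members and 0.28 over 15712 probe sets. The SD changes with level. In liver the median SD of all probe sets was 0.32 at a log2 level of 8.25 and 0.20 at 14.75. In kidney it rose again for strong signals, from 0.25 at 11.25 to 0.37 at 14.25. In brain it rose from 0.24 at 10.75 to 0.29 at 13.75. Each member was therefore also set against probe sets of its own level. Cyp2a12 (0.09), Cyp2c29 (0.14) and Cyp2s1 (0.16) lay under the 10th percentile of their level, while Cyp3a11, at 0.20, was at the median of its level. In all, 6 of the 32, or 18.8%, exceeded the 90th percentile of all probe sets, which was 0.50 and which 10% pass by construction. They were Cyp3a44 (1.23), Cyp2b13 (1.03), Cyp2b10 (0.83), Cyp2c38 (0.73), Cyp2c37 (0.53) and Cyp2b9 (0.51). Against probe sets of the same level, 10 of the 32, or 31.2%, were above the 90th percentile. The additional 4 were Cyp2g1 (0.49), Cyp2c23 (0.48), Cyp2d9 (0.45) and Cyp1a2 (0.39). In kidney the median was 0.34 over 9 members and 0.28 over 17040 probe sets, and only Cyp2e1 (0.81) was above the 90th percentile, over all levels (0.48) or at its own (0.44). In brain the 3 members had SDs of 0.30 to 0.35, against a median of 0.28 over 18050 probe sets.

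**Figure D3:**
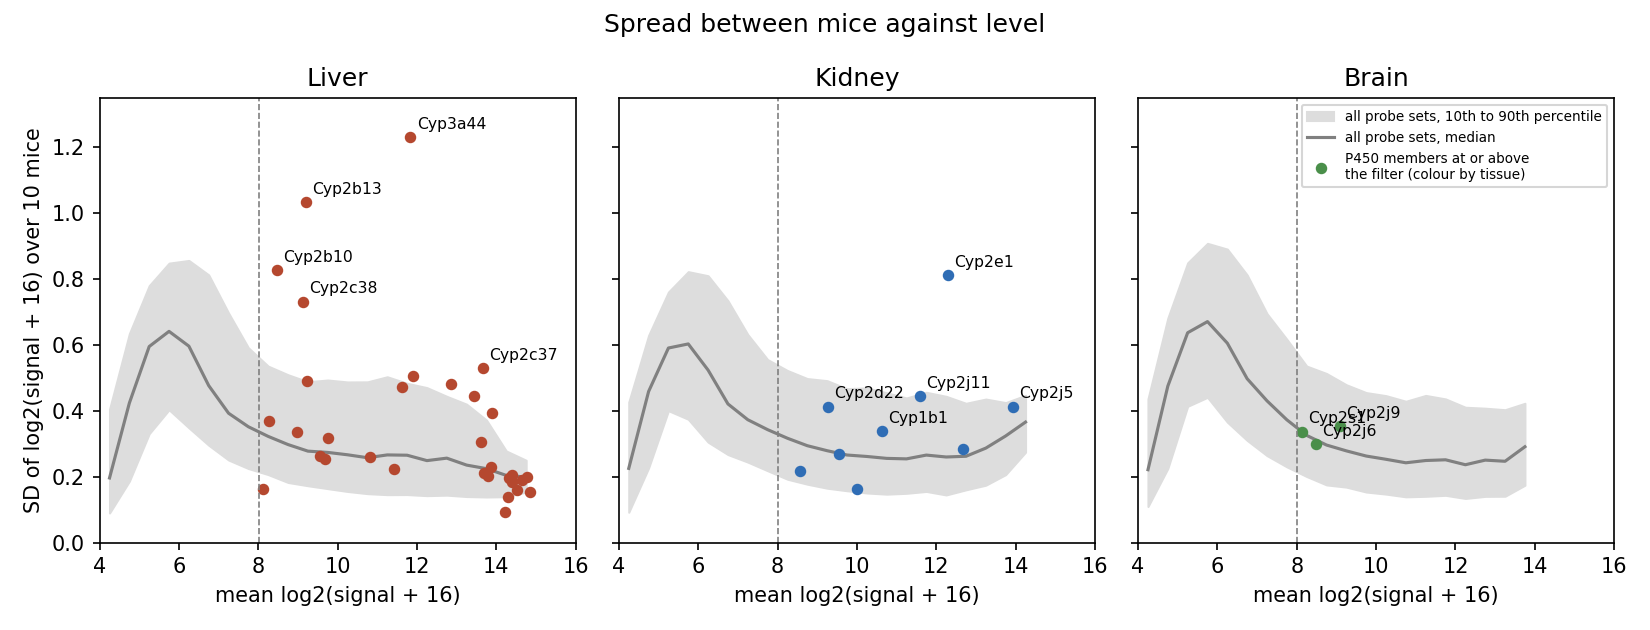
SD of log2(signal + 16) over 10 mice against the mean in liver, kidney and brain. Coloured points are the 32, 9 and 3 P450 members at or above the level (dashed line), and the grey line and band are the median and the 10th to 90th percentile of all probe sets at each level. Above the band lie 10 members in liver, Cyp3a44 and Cyp2b13 among them, and Cyp2e1 in kidney.

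Cyp3a44, known as a female-predominant liver form in adult mice, varied most. It was at 3858, 8161, 9516, 4696 and 4288 in the livers of number 2 mice, in the order of coat classes given above, and at 5145, 6984, 1299, 615 and 2294 in those of number 1 mice in the same order. Heavily mottled 1 and mottled 1 were lowest, and without these mice the SD was 0.66. Cyp3a16, of the same kind, was below the level on average. It was at 47.5, 326, 992, 53.9 and 104 in number 2 mice and 147, 179, 15.0, 1.1 and 66.4 in number 1 mice. It was highest and lowest in the same mice as Cyp3a44, mottled 2 and heavily mottled 1.

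Cyp2b13, also female-predominant in adults, was at 701, 842, 2233, 1260.2 and 363 in number 2 mice and 292, 751, 326, 349.7 and 219.9 in number 1 mice. Mottled 2 was highest, and the SD was 1.09 without mottled 1 and heavily mottled 1. Cyp2b9, of the same kind, was highest in mottled 2 as well, at 3917, 4614, 7837, 4179 and 2865 in number 2 mice and 2999.9, 5184, 2546, 3684 and 2565 in number 1 mice. Its SD was 0.52 without mottled 1 and heavily mottled 1. Cyp2b10 followed another order, with 352, 360.5, 591, 812 and 253 in number 2 mice and 122, 150.2, 389, 621 and 268 in number 1 mice. Both heavily mottled mice were at the top and yellow 1 at the bottom, and the SD without mottled 1 and heavily mottled 1 was 0.87. A difference of the heavily mottled class from the others was not tested.

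Cyp2d9, the male-predominant steroid 16 alpha-hydroxylase, was at 9835, 10485, 9846, 8513 and 11877 in the livers of number 2 mice and 10537, 7319.6, 9766, 21935 and 15193 in those of number 1 mice. Heavily mottled 1 was highest, and the SD was 0.31 without it and mottled 1, against 0.45 with them. The same liver was highest for 5 of the 6 other growth hormone dependent male genes measured, and these 5 were named after their values were seen. Hsd3b5 was at 14352 there and 4978 in mottled 1, against 808 to 2619 in the other 8 livers. Slco1a1 was at 12918 and 8711 in those mice, against 783 to 4008 in the others, and Elovl3 at 4251 and 435, against 136.5 to 268. Cyp7b1 (3339) and Cyp4a12a (6041) were also highest in heavily mottled 1. Mup3 was highest in pseudoagouti 1.

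Other members were extreme in those livers too. Cyp2c38 was at 744, 316.5, 422, 648 and 764 in number 2 mice and 465, 230.0, 597, 1507 and 439 in number 1 mice, with heavily mottled 1 highest. Without it and mottled 1 the SD was 0.58, against 0.73 with them. Cyp2c23 was at 15106 in heavily mottled 1 and 10068 in mottled 1, against 5065 to 9685 in the others, and its SD was 0.28 without these mice and 0.48 with them. Cyp2c37 was at 15492, 17386, 16753, 13720 and 15471 in number 2 mice and 16362, 11303, 5126, 10173 and 13827 in number 1 mice. Mottled 1 and heavily mottled 1 were its lowest livers, and the SD fell to 0.20 without them, against 0.53 with them. Alas1 was at 1939 and 909 in these livers, against 5251 to 25340.4 in the others.

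**Figure D4:**
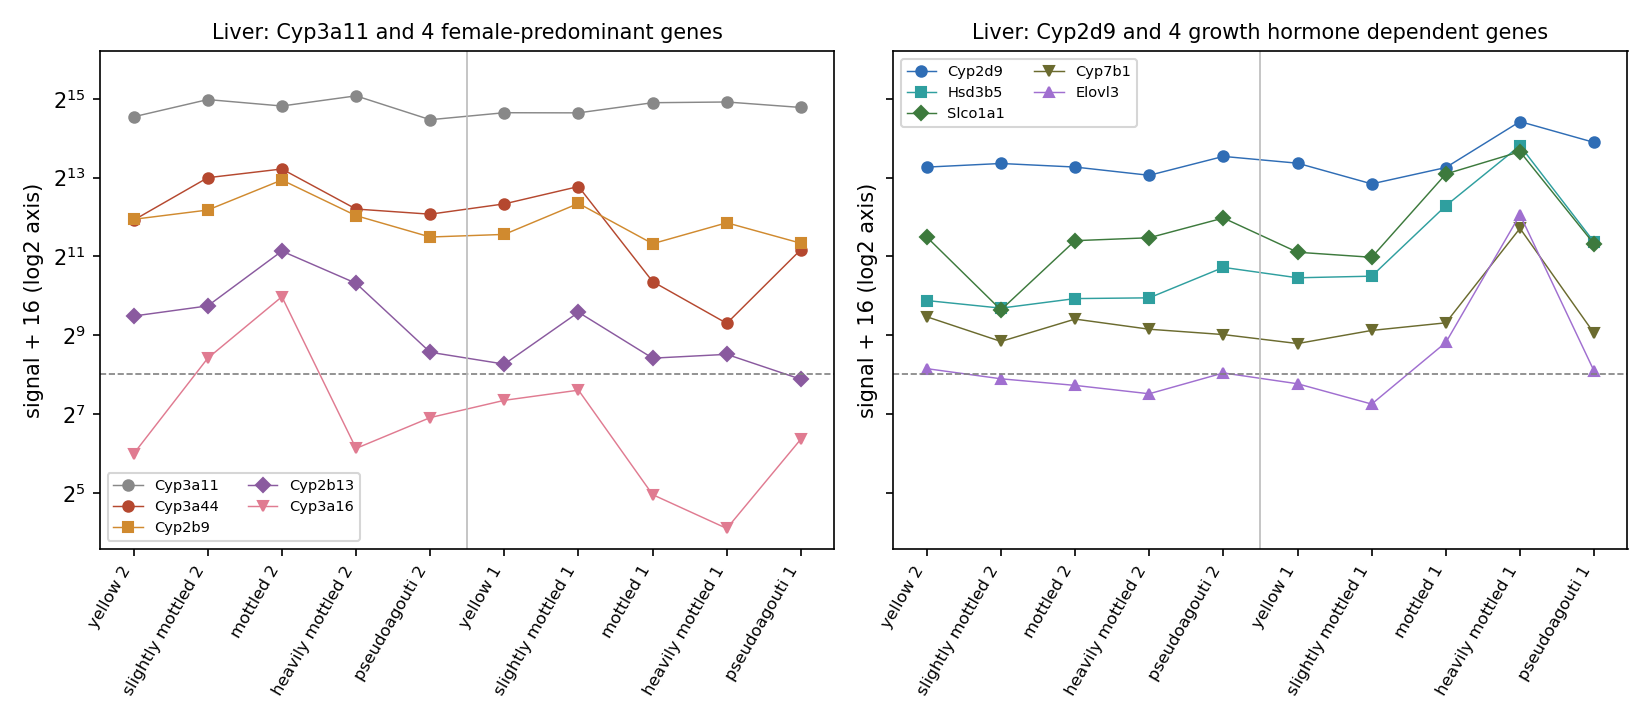
Liver signal + 16 on a log2 axis in each of the 10 mice, number 2 mice left of the vertical line and number 1 mice right of it, with the dashed line at the level used for testing. The left panel shows Cyp3a11 and 4 genes known as female-predominant in adults, with Cyp3a44 and Cyp3a16 lowest in heavily mottled 1. The right panel shows Cyp2d9 and 4 other male genes that depend on growth hormone, all highest in heavily mottled 1.

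The kidney of heavily mottled 1 stood apart in P450 genes as well. Cyp2e1 was at 6452, 2749, 2465, 5788 and 4312 in number 2 mice and 4797, 3123, 7623, 17008 and 4707 in number 1 mice. Heavily mottled 1 was highest and mottled 1 next, and the SD was 0.50 without them. Cyp2j13, named after its values were seen, was at 2536 in heavily mottled 1 and 572.5 in mottled 1, against 30.1 to 127 in the other 8 kidneys. Cyp2d9 was at 1046 in that kidney and 9.0 to 157.5 in the other 9. The androgen-regulated kidney gene Kap was also highest there, at 36551 against 14233 to 33587. The sum of 5 proximal tubule markers, Kap among them, was highest in the same kidney, at 87762 against a median of 49745. The sum of 2 thick ascending limb markers was highest there too, at 51874 against a median of 35051. That array also had the highest top signal of the 10 kidney arrays, 45410. Strong signals of other genes went both ways on it. Cyb5a was highest of the 10 there, at 25058, and Mgst1 lowest, at 4250. Whether the cell content of that kidney differed was not tested.

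The other variable kidney genes were steadier. Cyp2j11 was at 2583, 1936, 3707, 4111 and 2765 in number 2 mice and 2525, 2319, 4619, 4645 and 2555 in number 1 mice, and both heavily mottled kidneys and both mottled ones were the 4 highest. This order was seen in the values, and a difference of these classes from the others was not tested. Cyp1b1 was at 1133 to 2399 and Cyp2d22 at 381 to 912 in kidney. In brain, Cyp2j9 was lowest in mottled 1 (306) and highest in slightly mottled 2 (717), and Cyp2s1 was highest in heavily mottled 1 (393).

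A mouse effect shared by the 3 tissues was tested with limma's moderated F-test. It called 1 of the 35 members, or 2.86%, where 6.8% of all probe sets were called. The member was Cyp2d9, with a range of 2.72 between mouse means on the log2 scale and an adjusted p of 0.0275. Without heavily mottled 1 the range was 1.14 and the adjusted p 0.445. With the number as a block within tissues, the adjusted p was 0.104, and scaling by quantiles over all arrays gave 0.0648. Its brain values were 8.0 to 98.6 and its kidney mean was 184, both under the level. Of the 35 members, only 9 had a mean log2 signal at or above the level in kidney and 3 in brain. Among all probe sets, 17040 were at or above it in kidney and 18050 in brain. Most members thus had little signal outside liver in which a shared mouse effect could be seen. The share of members called therefore cannot be set against that of all probe sets.

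The number in the labels, whose meaning they do not give, divided few members. In kidney 2 of 35 members, or 5.71%, differed between number 2 and number 1 mice, where 7.33% of all probe sets did. Cyp2j5 was at 12269.6, 10573, 13819, 14738 and 12097 in number 2 kidneys and 19189.9, 20335, 13999, 26635 and 18776 in number 1 kidneys. Mottled 1 alone fell inside the range of the number 2 kidneys, and the log2 difference was -0.62 ± 0.16 (SE, adjusted p = 0.0429). Cyp2c38, around the level in kidney, was at 251 to 348 in number 2 kidneys and 146 to 258 in number 1 kidneys (log2 0.71 ± 0.17, adjusted p = 0.0387). The highest signal on the array also moved with the number in kidney, at 19007 to 25922 on number 2 and 22991 to 45410 on number 1 arrays. With quantile scaling over all arrays the Cyp2j5 difference was -0.18 (adjusted p = 0.225). Both calls were lost without any one of 8 mice, all but mottled 2 and mottled 1, with adjusted p of 0.0505 to 0.0957 for Cyp2j5 and 0.0545 to 0.0907 for Cyp2c38. The log2 differences were then -0.67 to -0.50 for Cyp2j5 and 0.65 to 0.72 for Cyp2c38. With coat class as a block 4 members were called, these and Cyp2c29 and Cyp2u1.

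In liver 0 of 35 members were called between the numbers, where 9.85% of all probe sets were, and 3, or 8.57%, had an unadjusted p under 0.05, against 25.7% of all. In brain the counts were 0 members against 1.97%, with 1 unadjusted, or 2.86%, against 22% of all. A difference of the number effect between tissues was called for 0 members, where 4.94% of all probe sets were called. Unadjusted there were 8, or 22.9%, against 24.7% of all. The limit given with the mouse effect, few members at the level in kidney and brain, holds for the shares called there and between tissues.

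Along the coat classes, scored 0 for yellow to 4 for pseudoagouti, limma called 0 members in liver, kidney and brain, where 0%, 0.00444% and 0% of all probe sets were called. The fit was a straight slope, which cannot detect a peak in the middle classes. At an unadjusted p under 0.05 there were 1, 6 and 0 of the 35, or 2.86%, 17.1% and 0%, against 2.38%, 2.06% and 1.45% of all probe sets. The 6 in kidney were Cyp1a2, Cyp2c29, Cyp2c50, Cyp2c54, Cyp2c70 and Cyp3a11, all with kidney means of log2 values under the level and with lower signal toward pseudoagouti, by -0.68 to -0.27 on the log2 scale per class. Without both yellow mice, 0 of the 35 had such a p, against 3.07% of all probe sets. That omission also removes a whole end class of the scale, so it cannot tell why these p-values changed. The cause was not tested.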

How the data were processed

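RNA of 3 tissues from each of 10 mice was hybridised to 30 Affymetrix arrays. The deposited file holds MAS5 signals, a linear intensity for each probe set, per the submitters' processing notes. Every column has a trimmed mean of 500.0 with 2% cut at each end. No detection calls were used. The 64 controls among the 45101 probe sets were not tested. The number of arrays limits the precision.

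Values were used as log2(signal + 16). Testing was limited to the 22519 probe sets whose top tissue mean reached the median of top tissue means. Tissues were compared with limma 3.58.1 in R 4.3.3, with the mouse as a block, since the labels' class and number name the animal on each array. The threshold was an adjusted p under 0.05, with a log2 difference of at least 1 for tissues. The labels do not say that the mice came from separate litters. The p-values of the number and coat fits within a tissue rest on the spread between these mice. Those of the tissue contrasts, the mouse effect and the interaction rest on the variation left after mouse and tissue are fitted. The fits were tested on simulated data.

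The members and lists were chosen with earlier results of these data known. Every member that passed the filter could be named. In each tissue, values per mouse were planned for the 5 members with the largest SD and for the member with the highest mean. They are given for all 5 in liver, and for Cyp2e1, Cyp2j11 and Cyp2j5 in kidney. Cyp2e1, which had the highest mean in liver, is given there as lowest, median and highest signal. Cyp1b1 and Cyp2d22 in kidney and the members in brain are given as ranges or extremes. Of members called in a fit, Cyp2c38 is given in kidney as ranges, and Cyp2d9 per mouse in liver only. Other genes given per mouse were chosen after their values were seen. Symbols came from the platform annotation, and all 43 equal RefSeq's. The alternatives were offsets of 1 and 64, other filters, quantile scaling, other probe sets, other blocks and each mouse left out. The omission of both yellow mice, with or without mottled 2, or of mottled 1 and heavily mottled 1, was added after the data were seen.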

Additional observations from a re-analysis of the deposited data

Results flagged for a closer look

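Cyp2c37 in liver was at 5126 in mottled 1, and the next lowest value was 10173 in heavily mottled 1. The gap took up 0.561 of the range of the 10 log2 values, above Dixon's critical value for 10 values. It was the only flag among 44 sets of 10 values, of which chance flags about 1 in 20.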

How the results depend on the processing

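Array signals carry no read depth, and 8 of the 43 members were too dim to test. In the settings run, 0 calls between tissues turned direction. Of 634 refitted values, 2 lost their call for liver against kidney, as did 2 of 634 for liver against brain and 22 of 298 for kidney against brain. The 22 belong to Cyp2b13, Cyp2c50, Cyp2d10, Cyp2r1 and Cyp3a25, whose kidney and brain levels are both low. Members called higher in liver numbered 23 to 32 against kidney and 25 to 36 against brain, the lowest with a filter on the overall mean and the highest with none, and 9 to 15 were called higher in kidney against brain. Without both yellow mice the last count was 10, as it was without these and mottled 2. Quantile scaling over all arrays moved the median over every tested probe set to -0.02 for liver against kidney, 0.11 for liver against brain and 0.13 for kidney against brain (log2), where it had been -0.13, -0.15 and 0.03, and 31, 33 and 14 members were then called higher. Tissue counts without the replicate block, where mice are not paired, were the same as with it, at 29 higher and 3 lower for liver against kidney.

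Members called lower in kidney than in brain numbered 1, Cyp2j9, with an offset of 64, with a filter on the overall mean and with quantile scaling over all arrays, and 1 to 2 with a mouse left out. The mouse effect called 0 members with the number as a replicate block, overall or within tissues, 0 with the suffixes _s_at, _x_at and _a_at left out, which removes the probe set of Cyp2d9, an _a_at one, and 0 to 2 with a mouse left out. The 1 call under quantile scaling, or without mottled 1 and heavily mottled 1, was Cyp2b9. Between the numbers in kidney, 0 members were called with no filter and under either quantile scaling, 4 with coat class as the replicate block, 4 without mottled 1 and heavily mottled 1, and 0 to 3 with a mouse left out. In liver that count was 1, Cyp2b13, with coat class as the replicate block, and 0 to 1 with a mouse left out. The number by tissue interaction called 1, Cyp2j5, with an offset of 64 and without mottled 1 and heavily mottled 1, and 0 to 1 with a mouse left out. The causes were not tested.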

Other observations

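Both probe sets that carry more than 1 P450 symbol were left out of the members. The probe set of Cyp3a41a and Cyp3a41b, female-predominant in adult liver, was at 362, 724 and 5612 in liver (lowest, median and highest of 10 mice), against 0.5, 6.25 and 34.4 in kidney and 0.4, 5.15 and 23.1 in brain. It was lowest in heavily mottled 1 and highest in mottled 2, as Cyp3a44 was. The probe set of Cyp2a5 and Cyp2a4, coumarin and steroid hydroxylases, was at 3567, 7641 and 10603 in liver, 58.4, 302 and 1451 in kidney and 2.4, 11.2 and 62.2 in brain. It was highest in heavily mottled 1 in both liver and kidney.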
